A study of Homo sapiens with 8 samples.

Results

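MS8815, a PROTAC directed against the histone methyltransferase EZH2, was compared with MS8815N, which the labels call its non-PROTAC analog. The comparison rests on 4 of the 8 libraries of the series, 2 with MS8815 and 2 with MS8815N, chosen by their labels. RNA was sequenced from SUDHL6, an established human B-cell lymphoma line, after 18 h with 2.5 µM of either compound, and 2 libraries of cells given the DMSO vehicle served as the common control. The labels call the libraries duplicates and name no separate cultures. The spread behind each p-value may therefore be technical. Each compound was deposited in a table of its own beside the same DMSO libraries. The 17702 genes present in both tables were put on one scale through those libraries, and all differences below are log2 differences of normalised read counts, MS8815 minus MS8815N, each with its standard error (SE) from limma. A gene was called at an adjusted p under 0.05 over all 17702 genes.

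EZH2 is the catalytic subunit of polycomb repressive complex 2 (PRC2), which methylates lysine 27 of histone H3 together with its core partners EED and SUZ12 and keeps developmental genes silent. Germinal-centre B cells and the lymphomas that arise from them express much EZH2. A PROTAC joins a ligand of its target to a ligand of a ubiquitin ligase, so that the target is ubiquitinated and destroyed by the proteasome. An analog that does not act as a PROTAC serves to show which effects of the compound do not need degradation. The series is concerned with EZH2 and SREBP2, the transcription factor that switches on cholesterol synthesis when sterols are scarce.

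The MS8815 libraries stood apart from the other libraries in several ways. Their estimated depth was 12970000 and 14640000 reads, against 34080000 and 30220000 reads with MS8815N. Replicates differed by a median of 0.11 on the log2 scale with MS8815, and by 0.0579 with MS8815N and 0.0629 with DMSO, among the upper 50% of genes by level. B-cell genes were present in every library, with MS4A1 (CD20) at 6917 normalised reads or more. A set of 45 B-cell genes nevertheless stood at 48.68% and 50.1% of the DMSO level in the MS8815 libraries, and at 94.82% and 94.01% with MS8815N. All 26 members of a list of adhesion and cytoskeleton genes of adherent cells were higher with MS8815, by a median of 3.58. Their summed normalised read count was 175000 and 171900 with MS8815, 38140 and 36990 with MS8815N, and 32400 and 32660 with DMSO. Of 11 epithelial markers tested, 9 were higher, and their sum was 15460 and 15140 with MS8815 against 1301 and 1298 with MS8815N. CDH1, an epithelial cadherin, was listed in the MS8815 table and not in the MS8815N table, so it was not tested. The part of these genes' source in the differences below was not tested.

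Values are therefore on the scale of the deposited normalisation unless another is named, and a second scale stands beside the named genes whose direction it turns. In that second scale, called B-cell scaling here, each library was divided by its level of the 45 B-cell genes, so B-cell genes lie near 0 by construction, and its p-values take the factor as exact. B-cell scaling moved the median difference of all genes from -0.04 to 0.88, and quantile normalisation moved it to -0.18. In bulk samples, fewer cells of a type and less RNA per cell cannot be told apart.

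Under the deposited normalisation, limma called 8454 genes, 4149 higher with MS8815 (23.4% of those tested) and 4305 lower (24.3%). On this scale the higher genes differed more and lay at lower levels. Their median difference was 2.33 at a median of 187.5 normalised reads, and 2934 of them differed by at least 2-fold. The lower genes had a median difference of -0.48 at a median of 2239 normalised reads, and 471 of them differed by at least 2-fold. After quantile normalisation 2076 higher and 2063 lower genes differed by at least 2-fold, and after B-cell scaling 6743 and 94 did. The libraries of the compounds did not overlap for 12742 genes (72%). For 5199 genes (29.4%) the 95% interval of the difference lay within 1.5-fold in either direction. MS8815N itself differed little from DMSO, with 26 genes called higher (0.147%) and 3 lower, or 1880 genes at an unadjusted p under 0.05. Those 29 calls rest on few libraries, since limma called 0 without either DMSO library, 3 and 4 without either MS8815N library, and 119 and 107 without either MS8815 library. MS8815 differed from DMSO in 4383 genes called higher (24.8%) and 4629 called lower (26.1%). Both comparisons with DMSO share its libraries. With the lower 50% of genes by level left out, 29.4% of the called genes were higher with MS8815, against 49.1% without that filter and 37.9% after quantile normalisation. Level is the mean over the 6 libraries, so a gene high only with MS8815 can pass. Of the 8851 genes kept, 1656 were called higher and 3969 lower, with a median difference of -0.18. Counts in lists of abundant genes are to be read against these. Quantile normalisation called 3391 of the 17702 genes higher and 5561 lower, and list counts on that scale are to be read against these. After B-cell scaling 98.5% of 13104 called genes were higher, which is 72.9% of all genes tested, and each count of list members higher on that scale is to be read against this share. Because B-cell scaling divides each library by a single factor, it moves nearly all differences upward by a similar amount. That all 4149 genes called higher were also called higher after it (23.4%) therefore follows largely by construction. Of the genes called lower, 192 were lower on both scales (1.08%) and 3286 (18.6%) were called higher after B-cell scaling.

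**Figure D1:**
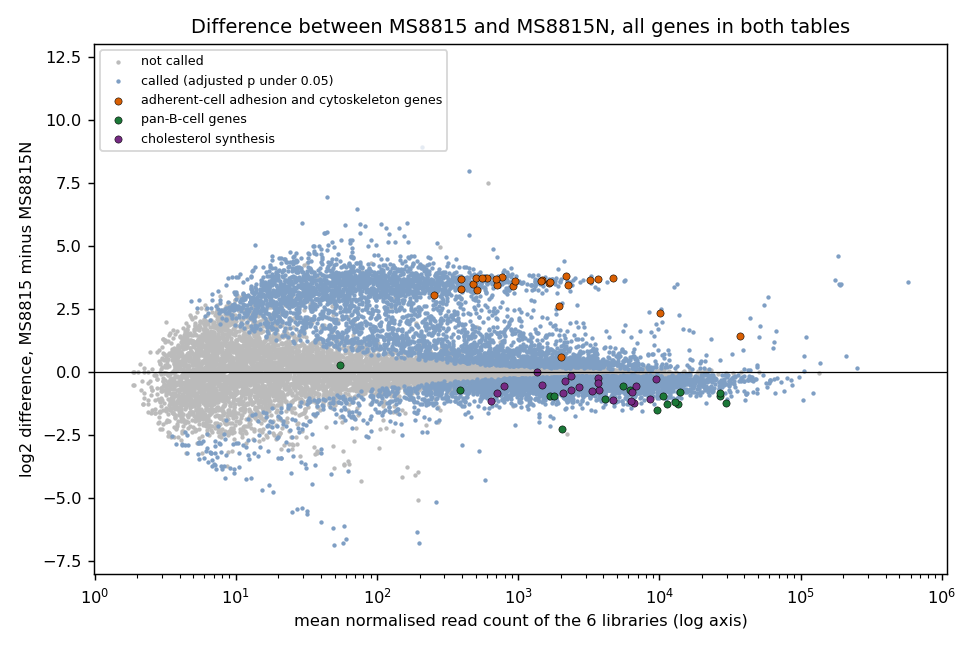
Log2 difference between MS8815 and MS8815N (vertical axis) against the mean normalised read count of the 6 libraries (horizontal log axis) for the 17702 genes in both tables, under the deposited normalisation. Adherent-cell genes (orange) lie between 0.60 and 3.79, pan-B-cell genes (green) between -2.26 and 0.30, and cholesterol synthesis genes (purple) between -1.21 and 0.01, and B-cell scaling moves all points upward.

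EZH2 transcript itself differed little between the compounds. The gene (GRCh38, chromosome 7, 148807383 to 148884321) had 3883 and 3673 normalised reads with MS8815, 4409 and 4509 with MS8815N, and 4430 and 4674 with DMSO. Both MS8815 libraries were the lowest, and the difference of -0.24 ± 0.05 (SE) was called (adjusted p = 0.00699), whereas after B-cell scaling it was 0.70 (adjusted p = 4.61e-05). It was no longer called without MS8815N replicate 2 (-0.22), after quantile normalisation (-0.06, adjusted p = 0.359) or in limma with no variance trend (adjusted p = 0.0632). A PROTAC acts on the protein, which was not measured here. SUZ12, the core subunit that holds the complex together, had 2897 and 2978 normalised reads with MS8815 and 2862 and 2916 with MS8815N, which is a difference of 0.02 ± 0.05 that was not called as deposited. It was called at 0.17 after quantile normalisation (adjusted p = 0.0275) and at 0.96 after B-cell scaling (adjusted p = 5.38e-06). EED, which reads the methyl mark, had 292.5 and 235.2 against 307.9 and 347.9 normalised reads, a difference of -0.32 that was not called as deposited (adjusted p = 0.13) and was 0.61 after B-cell scaling. It was called at -0.47 without MS8815 replicate 1 (adjusted p = 0.0265) and at -1.06 after quantile normalisation (adjusted p = 0.00268). EZH1, the paralogous methyltransferase, was higher with MS8815 at 627 and 702.3 normalised reads against 483.3 and 429.6, a difference of 0.54. That call was lost without MS8815N replicate 2 (adjusted p = 0.0594) and after quantile normalisation (0.25, adjusted p = 0.126).

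Of the 13 PRC2 core and accessory genes, 3 were called higher (EZH1, JARID2 and PHF1) and 5 lower under the deposited normalisation, with a median of -0.09, whereas all 13 were higher after B-cell scaling, with a median of 0.85. The accessory subunit gene PHF1, whose product reads methylated histone H3, rose most, by 1.58 ± 0.13. RBBP4 and RBBP7, histone-binding subunits that PRC2 shares with other complexes, were lower by -0.61 and -0.47 as deposited and higher by 0.33 and 0.46 after B-cell scaling.

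Among 15 tested genes reported to be repressed by EZH2, 12 were higher with MS8815 and 2 were lower as deposited, with a median of 1.40 against -0.04 over all genes. After quantile normalisation 9 were higher and 2 lower with a median of 0.66, where that of all genes was -0.18. After B-cell scaling 14 were higher, with a median of 2.34 where that of all genes was 0.88. Among the members in the upper 50% of genes by level the median was 0.46 as deposited. CDKN1A, the cyclin-dependent kinase inhibitor p21, had 2300 and 1924 normalised reads with MS8815, 216.3 and 221.4 with MS8815N, and 165.1 and 149.3 with DMSO. The MS8815 libraries were the only high ones, and the difference was 3.26 ± 0.13 (adjusted p = 4.99e-06). CDKN2A, which encodes p16 and p14ARF, went the other way as deposited. It had 2541 and 2439 normalised reads with MS8815 against 4930 and 4989 with MS8815N, a difference of -0.99 that became -0.06 after B-cell scaling. PRDM1, the plasma-cell regulator BLIMP1, was not called as deposited and was called at 2.54 after B-cell scaling (adjusted p = 0.0154). Its libraries had 84.76 and 89.49 normalised reads with MS8815, and 11.95 and 63.65 with MS8815N, and without MS8815N replicate 2 the difference was 2.77 and called (adjusted p = 0.00809). KLF6, a zinc-finger transcription factor, rose by 1.33. FOXO3, a forkhead factor, rose by 0.24, a call that was lost without either MS8815N library, without MS8815 replicate 1 or with no variance trend.

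Of 29 developmental genes known to be under polycomb control, 22 were in both tables and 5 more only in the MS8815 table. Of the 22, 18 were higher with MS8815 and 3 were lower as deposited, with a median of 3.28, which lies beside the median of 3.58 of the adherent-cell genes. Among the members in the upper 50% of genes by level the median was -0.30. BMP4, a secreted growth factor, had 1673 and 1641 normalised reads with MS8815 against 120.4 and 111.9 with MS8815N. GATA6, an endodermal transcription factor, had 517.6 and 441.6 against 27.63 and 22.98, and SOX9, a transcription factor of cartilage and epithelia, had 774.8 and 694.3 against 70.93 and 55.37. In each of these 3 genes MS8815N lay near DMSO and the MS8815 libraries lay far above. RUNX3, a lymphoid transcription factor, was instead lower by -0.30 as deposited and higher by 0.64 after B-cell scaling. Its deposited call was lost without MS8815 replicate 2 or either MS8815N library. It was also lost after quantile normalisation (-0.18) and with no variance trend. Whether the higher levels of the list come from lymphoma cells was not tested.

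Cholesterol synthesis genes were lower with the degrader than with the analog under the deposited normalisation. HMGCS1, which makes HMG-CoA (chromosome 5, 43289395 to 43313512), had 3024 and 3439 normalised reads with MS8815, 7259 and 7622 with MS8815N, and 9140 and 9322 with DMSO. The 3 groups did not overlap, and MS8815 was the lowest. The difference between the compounds was -1.21 ± 0.06 (adjusted p = 1.49e-05), which is 2.30-fold, and it was -0.27 after B-cell scaling (adjusted p = 0.00468). SQLE, the squalene epoxidase, had 2429 and 2564 normalised reads with MS8815 against 5314 and 5376 with MS8815N. IDI1, the isopentenyl diphosphate isomerase, had 3466 and 3187 against 7475 and 7184. Both were lower on both scales, SQLE by -1.10 as deposited and -0.16 after B-cell scaling, and IDI1 by -1.14 and -0.21.

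Of 21 cholesterol synthesis genes, 19 were lower and 0 higher as deposited, with a median of -0.69, whereas 14 were higher and 3 lower after B-cell scaling, with a median of 0.24 where that of all genes was 0.88. The 3 that were lower on both scales were HMGCS1, SQLE and IDI1. ACAT2, which makes acetoacetyl-CoA at the start of the pathway, was not called as deposited, with 1353 and 1283 normalised reads with MS8815 against 1316 and 1301 with MS8815N, and was at 0.94 after B-cell scaling.

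SREBF2, the gene of SREBP2, had 8984 and 9649 normalised reads with MS8815 against 13550 and 13790 with MS8815N and 14060 and 14090 with DMSO. It was lower by -0.55 ± 0.04 as deposited (adjusted p = 4.53e-05) and higher by 0.38 after B-cell scaling. INSIG1, which retains SREBP in the endoplasmic reticulum, was likewise lower by -0.29 and then higher by 0.64. Its deposited call was lost in limma after quantile normalisation (-0.14, adjusted p = 0.0577). Of 14 tested genes of sterol uptake and SREBP control, 6 were higher and 2 lower as deposited and 14 were higher after B-cell scaling. NPC2, which carries cholesterol out of lysosomes, rose from 1334 and 1369 normalised reads with MS8815N to 2467 and 2454 with MS8815. SREBF1, the gene of the fatty acid regulator SREBP1, was not called as deposited, with 2426 and 2674 normalised reads against 2669 and 2803, and was at 0.83 after B-cell scaling. Genes of fatty acid synthesis split, since 5 of 12 were higher and 3 lower. The desaturases FADS1 and FADS2 were higher by 3.09 and 3.21, near the median of the adherent-cell genes, and the citrate lyase ACLY was lower by -0.51 as deposited and higher by 0.42 after B-cell scaling.

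**Figure D2:**
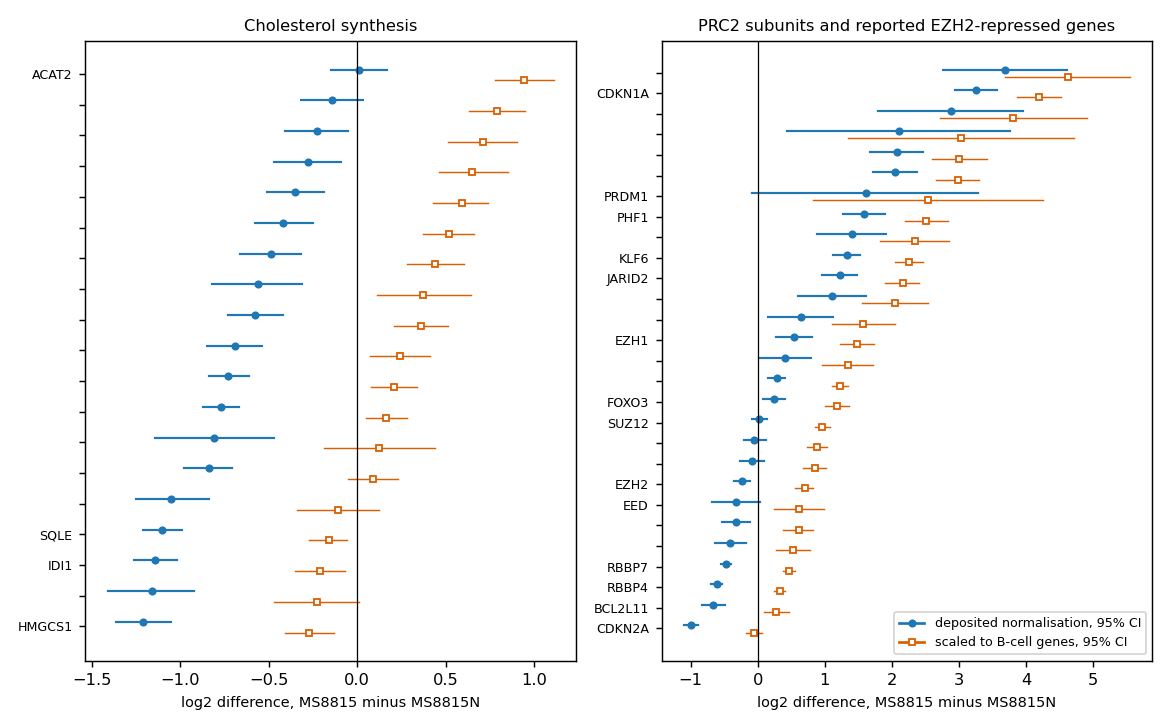
Log2 differences between MS8815 and MS8815N (horizontal axis) with 95% confidence intervals for cholesterol synthesis genes other than some not reported here (left), and PRC2 subunits with reported EZH2-repressed genes (right), with gene names where the text gives them. Blue circles give the deposited normalisation, in which the cholesterol list had a median of -0.69, and orange squares B-cell scaling, in which it was 0.24.

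ATF4 is the transcription factor of the integrated stress response, which raises amino acid synthesis and transport when translation initiation is restrained. ATF5, a related factor (chromosome 19, 49928702 to 49933935), had 14320 and 14190 normalised reads with MS8815N, 5677 and 6045 with MS8815, and 7321 and 7345 with DMSO. MS8815N was far above both other groups, and none of the groups overlapped. MS8815 was below MS8815N by -1.28 ± 0.04 (adjusted p = 1.64e-06) as deposited, which is 2.43-fold, and by -0.35 after B-cell scaling (adjusted p = 0.000108). ATF5 was the only one of the 30 tested members lower on both scales.

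PSAT1, an enzyme of serine synthesis, had 8798 and 8549 normalised reads with MS8815N, 5195 and 5071 with MS8815, and 5540 and 5679 with DMSO. Its difference was -0.76 ± 0.04 as deposited and 0.18 after B-cell scaling (adjusted p = 0.00796). ASNS, the asparagine synthetase, had 7257 and 6845 with MS8815N against 4478 and 3651 with MS8815, a difference of -0.80 as deposited and of 0.13 after B-cell scaling, where it was not called. Its difference from DMSO (4218 and 4535) to MS8815N was not called either (adjusted p = 0.0776). PCK2, the mitochondrial phosphoenolpyruvate carboxykinase, had 1812 and 1918 normalised reads with MS8815N, 1417 and 1199 with MS8815, and 919.6 and 877.7 with DMSO. Here MS8815 lay between the analog and DMSO, and its difference from MS8815N was -0.52 as deposited and 0.42 after B-cell scaling. ATF4 itself was lower by -0.19 as deposited, higher by 0.75 after B-cell scaling and at 0.09 after quantile normalisation.

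Other members were higher with MS8815 and not with MS8815N. PPP1R15A (GADD34), which reverses the phosphorylation that starts the response, had 3357 and 3347 normalised reads with MS8815, 876.1 and 850.2 with MS8815N, and 802.5 and 881.8 with DMSO, a difference of 1.96 ± 0.07. ATF3, a stress-induced factor of the same family, had 1231 and 1329 normalised reads with MS8815 and at most 36.34 in the other 4 libraries, a difference of 5.45. DDIT4, an inhibitor of mTORC1 signalling, rose by 1.31. SLC3A2, the heavy chain of amino acid transporters, had 9632 and 9576 normalised reads with MS8815 and 9596 and 9569 with MS8815N. The compounds overlapped there, both above the 7704 and 7969 of DMSO, and the 95% interval of the difference was -0.07 to 0.08.

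In all, 12 of 30 members of the ATF4 program were higher and 14 lower as deposited, with a median of -0.04, and 27 were higher and 1 lower after B-cell scaling, with a median of 0.90 beside 0.88 over all genes. Limma called 7 of the 30 higher with MS8815N than with DMSO. Of the 20 cytosolic aminoacyl-tRNA synthetases, which charge tRNAs and are partly ATF4 targets, 13 were lower and 1 higher as deposited, and 20 were higher after B-cell scaling. Among the members in the upper 50% of genes by level the deposited median was -0.28, beside -0.18 over all genes there. WARS, the tryptophan enzyme, had 9153 and 9030 normalised reads with MS8815N, 5937 and 6510 with MS8815, and 6216 and 6384 with DMSO, and MS8815 differed from MS8815N by -0.55 as deposited and 0.39 after B-cell scaling. KARS, the lysine enzyme, was lower by -0.60 as deposited and higher by 0.33 after B-cell scaling, with no call between MS8815N and DMSO (adjusted p = 0.681), and LARS, the leucine enzyme, had 5625 and 4857 against 5288 and 5114 normalised reads as deposited and was at 0.94 after B-cell scaling.

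**Figure D3:**
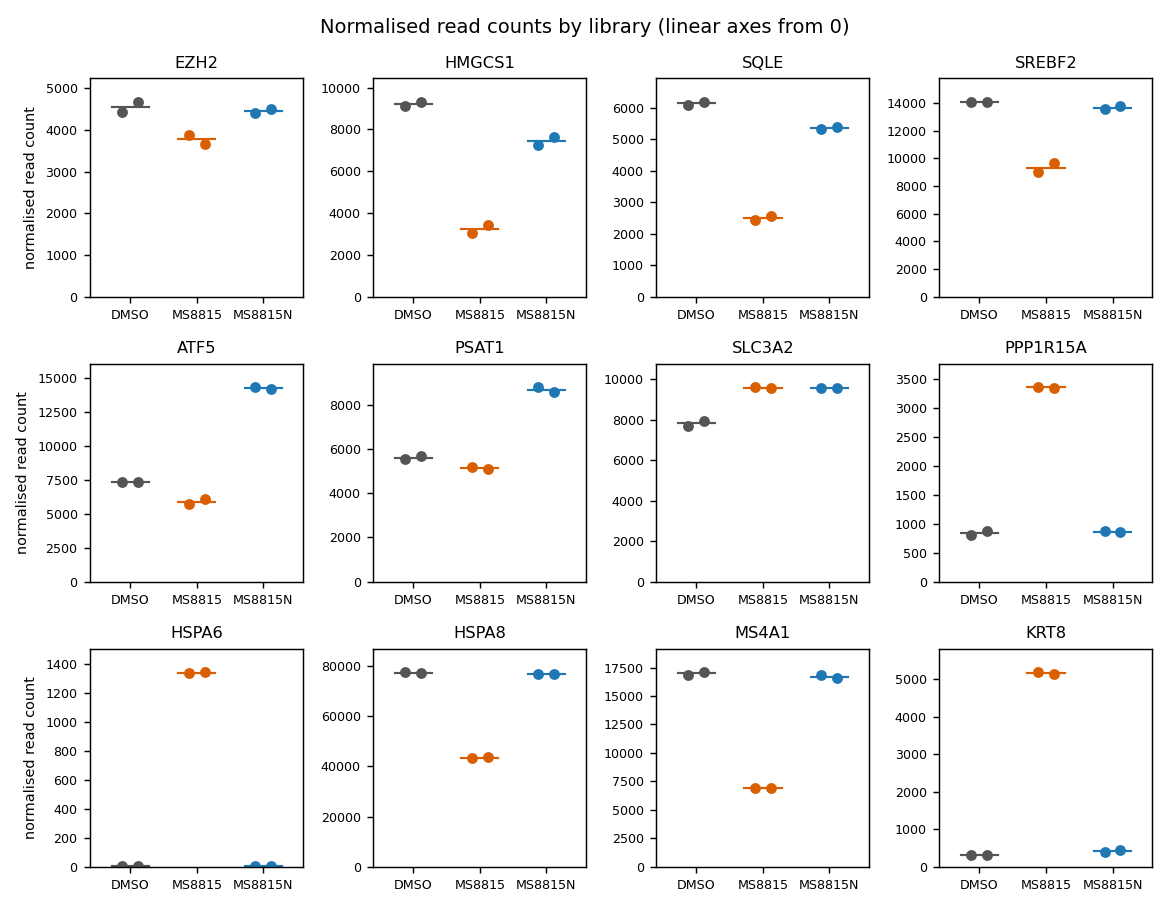
Normalised read counts (vertical axes, linear from 0) in the 2 libraries of DMSO, MS8815 and MS8815N for 12 genes, under the deposited normalisation; points are libraries and lines are group means. MS8815N stands alone for ATF5 and PSAT1, MS8815 stands alone for HMGCS1, SREBF2, PPP1R15A, HSPA6, HSPA8, MS4A1 and KRT8, and the compounds coincide for SLC3A2.

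Of 19 genes of endoplasmic reticulum chaperones, which fold secreted proteins, 11 were lower and 3 higher with MS8815 as deposited. After B-cell scaling 2 were lower and 14 higher. The deposited median was -0.30, beside -0.04 over all genes. Among the members in the upper 50% of genes by level it was -0.45, beside -0.18 over all genes there. HSPA5 (BiP), the main chaperone of this compartment, had 19660 and 19970 normalised reads with MS8815, 38260 and 38310 with MS8815N, and 37640 and 38070 with DMSO. The difference was -0.95 ± 0.02 as deposited and -0.02 after B-cell scaling. SDF2L1 and MANF, smaller proteins of the same stress response, were the 2 genes lower on both scales, at -1.22 and -1.14 as deposited and at -0.29 and -0.21 after B-cell scaling. XBP1, a transcription factor of the unfolded protein response, was at -0.01 as deposited and 0.93 after B-cell scaling.

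Heat-shock genes, mainly cytosolic, differed in opposite directions as deposited, whereas 17 of 19 were higher and 0 lower after B-cell scaling. HSPA6, a strictly inducible member of the HSP70 family (chromosome 1, 161524540 to 161526910), had 1340 and 1346 normalised reads with MS8815, 4.606 and 4.175 with MS8815N, and 5.157 and 5.042 with DMSO. Both MS8815 libraries were far above the other 4, and the difference was 7.96 ± 0.32 (adjusted p = 4.94e-06). With so few reads in the other libraries its size is uncertain. The adherent-cell genes ranged from 0.60 to 3.79, and whether HSPA6 shares their source was not tested. HSPA1B, an inducible HSP70, had 18720 and 17960 normalised reads with MS8815 against 3559 and 3557 with MS8815N, and HSPA1A had 1771 and 2002 against 46.36 and 84.07. These neighbouring genes are nearly identical copies, and how reads were split between them is uncertain. BAG3, a co-chaperone, rose by 2.07 and the small heat-shock protein HSPB1 by 1.84. DNAJB1, a co-chaperone of HSP70, rose by 0.70 ± 0.05, from 4059 and 3717 to 6248 and 6358 normalised reads.

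The abundant constitutive members HSPA8 and HSPD1 were lower as deposited, whereas HSP90AA1 was not. HSPA8 (HSC70), the housekeeping HSP70, had 43380 and 43580 normalised reads with MS8815, 76690 and 76550 with MS8815N, and 77500 and 77070 with DMSO. The difference was -0.82 ± 0.02 (adjusted p = 2.94e-07) as deposited and 0.12 after B-cell scaling. HSPD1, the mitochondrial HSP60, was lower by -0.83 as deposited and higher by 0.11 after B-cell scaling. HSP90AA1, the inducible HSP90, had 104900 and 106500 normalised reads against 102100 and 102400, a difference of 0.05 that was called (adjusted p = 0.04) and that was -0.72 after quantile normalisation. That call was also lost without MS8815 replicate 2 or either MS8815N library. It was lost as well with pseudocount 10, no variance trend, 1 variance for each group, and the 4 libraries of the compounds only. In all, 8 of 19 genes were higher and 11 lower as deposited.

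Promoters of this family were read from RefSeq on GRCh38.p14 because its members moved apart as deposited. Heat-shock factors bind inverted GAA repeats, searched here as GAANNTTC or TTCNNGAA on both strands, which overlap each other where repeats run on. Windows of 300 bases at transcript starts held a match in 13.49% of all promoters and in 10.53% of promoters of tested genes. Of the promoters of heat-shock genes, 14 of 26 held a match (53.8%). Counted by gene, 13 of the 17 heat-shock genes with a promoter entry had at least 1 window with a match. The genes with a match included risers (HSPA6, HSPA1A, HSPA1B and DNAJB1) and genes lower as deposited (HSPA8 and HSPD1). A further DNAJB1 match, at another transcript start, is not shown. Stretches that hold matches follow for some of the 13 genes, 5′ to 3′ on the gene's strand, with the matched bases in capitals.
HSPA6, chr1:161524345-161524493, plus strand: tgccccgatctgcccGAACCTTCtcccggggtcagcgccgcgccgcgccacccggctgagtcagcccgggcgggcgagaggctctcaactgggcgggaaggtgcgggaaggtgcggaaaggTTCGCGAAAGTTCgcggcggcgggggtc
HSPA1A, chr6:31815422-31815459, plus strand: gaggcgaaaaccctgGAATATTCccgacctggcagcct
HSPA1B, chr6:31827618-31827655, plus strand: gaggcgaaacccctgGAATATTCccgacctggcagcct
DNAJB1, chr19:14518422-14518489, minus strand: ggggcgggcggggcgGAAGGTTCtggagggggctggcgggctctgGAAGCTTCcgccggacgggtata
HSPA8, chr11:123062164-123062381, minus strand: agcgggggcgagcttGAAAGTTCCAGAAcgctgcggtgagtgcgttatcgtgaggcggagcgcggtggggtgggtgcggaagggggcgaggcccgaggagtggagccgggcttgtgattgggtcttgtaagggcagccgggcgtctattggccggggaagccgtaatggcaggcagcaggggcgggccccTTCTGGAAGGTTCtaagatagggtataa
HSPD1, chr2:197500053-197500090, minus strand: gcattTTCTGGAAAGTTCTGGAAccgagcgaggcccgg
HSP90AA1, chr14:102087090-102087147, minus strand: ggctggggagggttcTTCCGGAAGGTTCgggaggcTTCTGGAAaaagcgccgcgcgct

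HSPA8, HSPD1 and HSP90AA1 carry overlapping repeats, as HSPA6 does, and differed by -0.82, -0.83 and 0.05 as deposited and by 0.12, 0.11 and 0.98 after B-cell scaling. The match is a description of letters in this window and not a measured binding site. The ATF4 composite element TGATGNAAT was in 0.99% of all promoters, in 1 of 38 promoters of the ATF4 program (FGF21) and in 2 of 21 promoters of aminoacyl-tRNA synthetases (GARS1 and TARS1). The sterol element CACCCCAC was in 2.79% of all promoters and in 0 of 16 cholesterol synthesis genes with an entry, which says only that these letters are not in those windows.

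**Figure D4:**
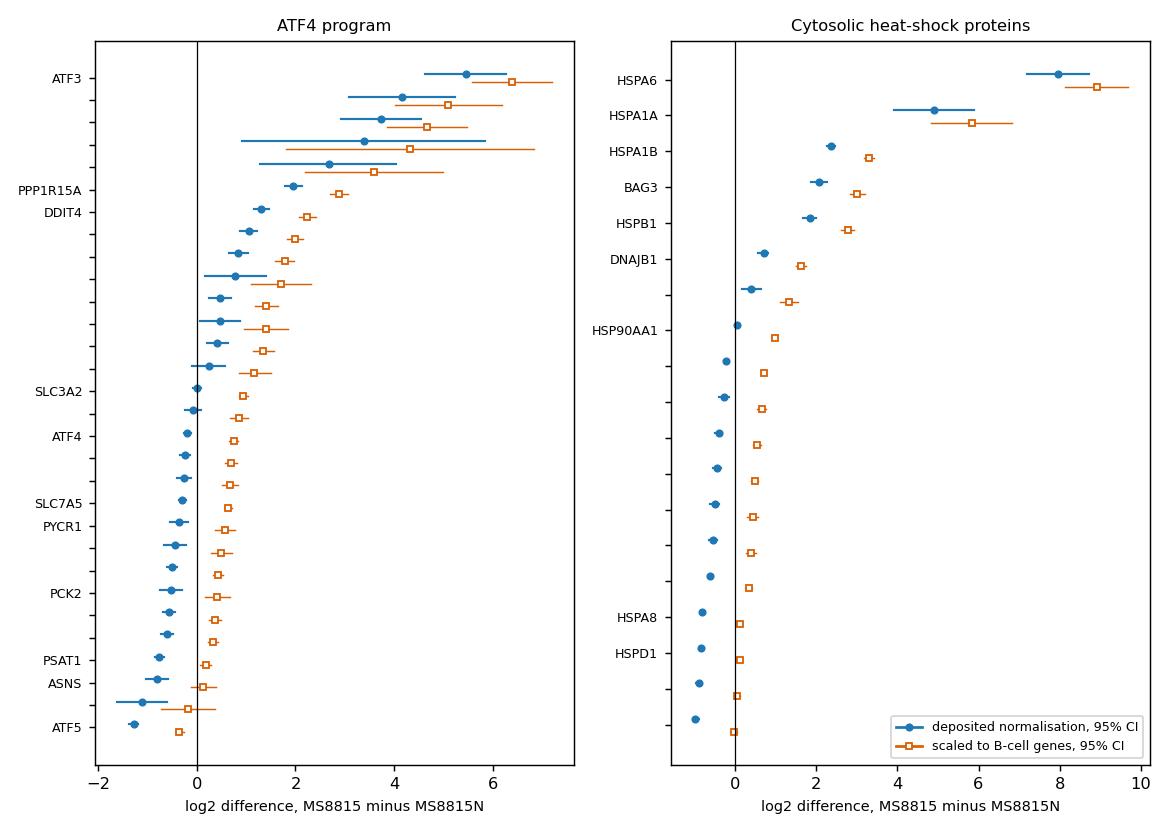
Log2 differences between MS8815 and MS8815N (horizontal axis) with 95% confidence intervals for the ATF4 program (left) and heat-shock genes, mainly cytosolic (right), with gene names where the text gives them. Blue circles give the deposited normalisation and orange squares B-cell scaling, and HSPA6 lies farthest to the right at 7.96 as deposited and 8.91 after B-cell scaling.

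VHL is the substrate receptor of a cullin ubiquitin ligase that degrades hypoxia-inducible factors and that many PROTACs recruit. The labels do not say which ligase MS8815 recruits. VHL had 1536 and 1608 normalised reads with MS8815 and 1727 and 1683 with MS8815N, and was not called as deposited (adjusted p = 0.168) but was at 0.82 after B-cell scaling. Of 12 genes of this ligase and of neddylation, which activates cullins, 8 were lower and 1 higher as deposited, and 12 were higher after B-cell scaling. Among the members in the upper 50% of genes by level the deposited median was -0.25, beside -0.18 over all genes there. CAND1, which exchanges the substrate receptors, was lower by -0.43 as deposited and higher by 0.50 after B-cell scaling. Targets of hypoxia-inducible factors were mostly higher with MS8815, 14 of 20 with 1 lower as deposited, and a median of 0.88. Among the members in the upper 50% of genes by level the median was 0.35. VEGFA, the endothelial growth factor, had 1212 and 1340 normalised reads against 148.2 and 133.1, and the glucose transporter SLC2A1 rose by 0.72. LDHA, the lactate dehydrogenase, had 37200 and 37180 against 36670 and 37420, a difference of 0.01 as deposited and 0.94 after B-cell scaling.

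Targets of the oxidative stress regulator NRF2 and ferritin genes were mostly higher. Of 15 tested, 14 were called higher and 0 lower on both the deposited and the quantile scale, with medians of 0.86 and 1.0. FTL, the ferritin light chain, had 103900 and 104000 normalised reads with MS8815, 45640 and 46080 with MS8815N, and 42920 and 44290 with DMSO, a difference of 1.18 ± 0.02. FTH1, the heavy chain, rose by 0.73 and was also 1 of the 26 genes called higher with MS8815N than with DMSO, by 0.24. SRXN1, which repairs oxidised peroxiredoxins, rose by 1.96.

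Genes of cell death and the p53 response split. Of 15 BCL2 family members, 6 were higher and 5 lower as deposited, and 14 were higher after B-cell scaling. BCL2L1, which encodes the survival protein BCL-XL, had 5033 and 5309 normalised reads with MS8815 against 1563 and 1469 with MS8815N, a difference of 1.77 ± 0.06. BCL2 had 6621 and 6734 against 9829 and 9739, a difference of -0.55 as deposited and 0.38 after B-cell scaling. BCL2L11, the death-promoting BIM, was lower by -0.66 as deposited and higher by 0.27 after B-cell scaling. Of 16 targets of p53, 6 were higher and 6 lower as deposited. The death receptor gene TNFRSF10B rose by 1.33, and the antiproliferative gene BTG2 differed by 0.06 as deposited and 0.99 after B-cell scaling.

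B-cell identity genes were lower with MS8815 as deposited, and some were lower on both scales. Because B-cell scaling centres such genes near 0, some of them lie below 0 after it by construction. Of 17 pan-B-cell genes, 16 were lower and 0 higher as deposited, with a median of -0.94, and 7 were lower and 3 higher after B-cell scaling, which used 16 of the same genes. VPREB3, a member of this list (chromosome 22, 23752743 to 23754468), had 564 and 598.4 normalised reads with MS8815, 2793 and 2797 with MS8815N, and 2668 and 2775 with DMSO. It was lower by -2.26 ± 0.06 as deposited and by -1.33 after B-cell scaling. MS4A1 had 6933 and 6917 normalised reads against 16800 and 16550, a difference of -1.27 as deposited and -0.33 after B-cell scaling. PAX5, the B-lineage transcription factor, was lower by -0.56 as deposited and was at 0.38 after B-cell scaling. Its deposited call was lost without any 1 of 5 libraries (all but MS8815 replicate 1). It was lost as well after quantile normalisation (-0.34), with pseudocount 0.1, with no variance trend and with the 4 libraries of the compounds only.

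Among 18 germinal-centre genes, 15 were lower and 3 higher as deposited, and RGS13, GCSAM, IRF8 and STAP1 were lower on both scales. RGS13, a regulator of chemokine receptor signalling, had 2984 and 2916 normalised reads against 7841 and 7846, and IRF8, a B-cell and myeloid transcription factor, had 1335 and 1316 against 3646 and 3494. Their differences were -1.41 and -1.43 as deposited and -0.48 and -0.49 after B-cell scaling. Of 18 genes of B-cell receptor signalling, 13 were lower and 1 higher as deposited. BTK, a kinase of that pathway, was lower by -1.02 as deposited and was at -0.09 after B-cell scaling. The phosphatase gene INPP5D was lower by -1.25 and -0.31. The germinal-centre and B-cell receptor lists also supplied genes to the scaling factor, so some members lie below 0 after it by construction. Of 10 plasma-cell genes, MZB1, JCHAIN and FKBP11 were lower on both scales, and SDC1 (CD138), which epithelial cells also express, was higher by 3.60.

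Antigen presentation and interferon genes were mostly higher. Of 16 MHC class I genes, 11 were higher and 2 lower as deposited, with a median of 0.92. HLA-B had 4596 and 4929 normalised reads with MS8815, 530.4 and 538.3 with MS8815N, and 374.5 and 332.3 with DMSO, a difference of 3.15 ± 0.09. HLA-E, a ligand of natural killer cell receptors, rose by 2.84. The class II genes split, with 7 of 16 higher and 7 lower as deposited. CD74, the invariant chain, was lower by -1.07 as deposited and by -0.14 after B-cell scaling, while HLA-DRA rose by 2.93 from low levels. Of 25 interferon-response genes, 19 were higher and 2 lower as deposited, with a median of 2.51, which was 1.59 after quantile normalisation and 0.10 among the members in the upper 50% of genes by level. IFIT3, an antiviral effector, had 1258 and 1127 normalised reads against 106 and 93.07, whereas STAT2, which carries the interferon signal, was at -0.02 as deposited and 0.91 after B-cell scaling, with 921.6 and 1536 normalised reads in the MS8815 libraries. It was 0.35 without MS8815 replicate 1 and -0.39 without MS8815 replicate 2. AP-1 and immediate early genes were higher in 13 of 15 cases, among them FOSL1 by 3.64 and JUN by 2.75, and JUNB was at 0.06 as deposited and 1.00 after B-cell scaling. Beside these lists stand the adherent-cell genes at a median of 3.58, and their part in them was not tested.

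**Figure D5:**
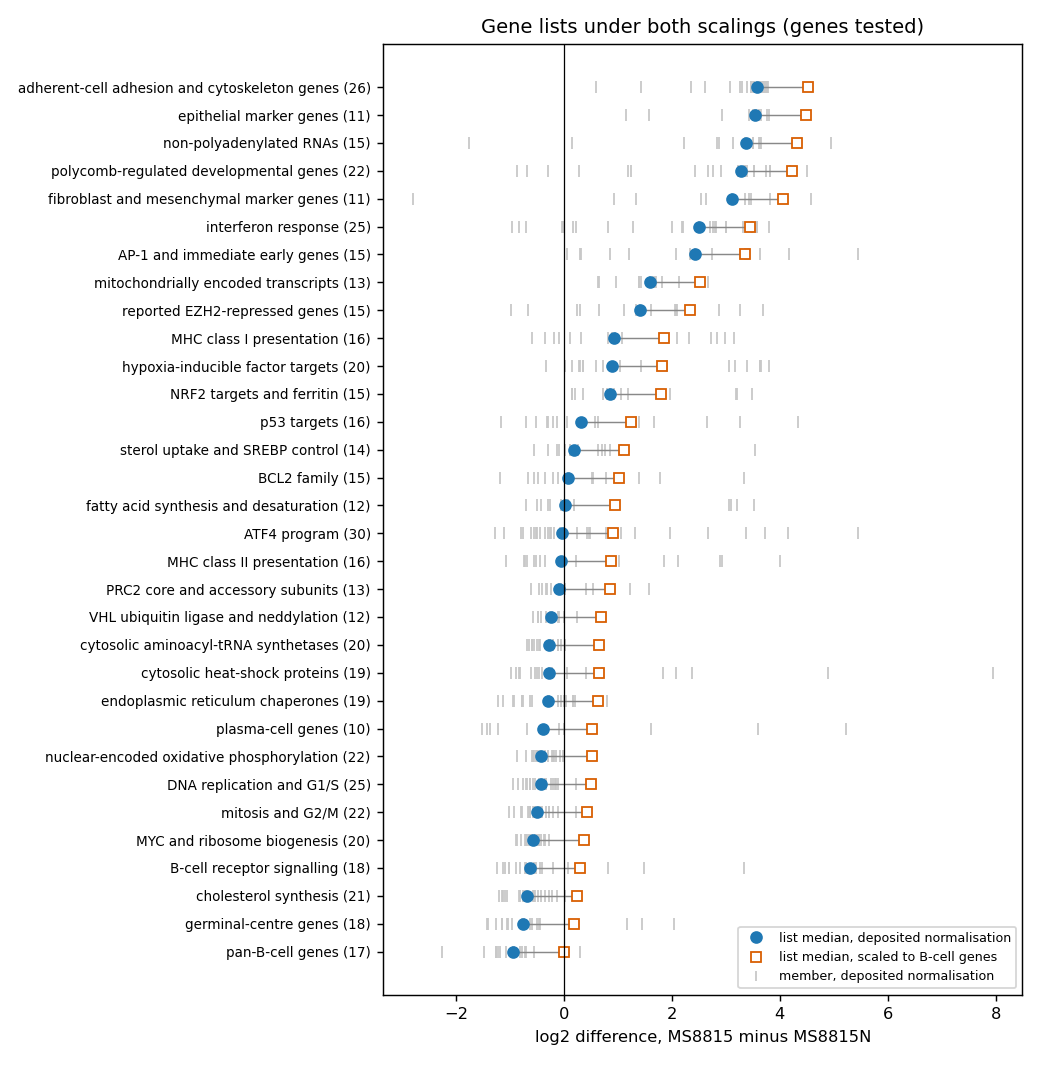
Median log2 difference between MS8815 and MS8815N for each list with at least 10 tested genes, under the deposited normalisation (blue circles) and after B-cell scaling (orange squares), with single members as grey ticks on the deposited scale and the number of genes tested in brackets. Adherent-cell genes lie highest at 3.58 and pan-B-cell genes lowest at -0.94, and B-cell scaling moves the medians of cholesterol synthesis, germinal-centre, MYC, mitosis and replication lists from below to above 0.

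Proliferation genes were lower as deposited and higher after B-cell scaling. Of 25 genes of DNA replication, 22 were lower and 0 higher as deposited, with a median of -0.43, and 22 were higher after B-cell scaling. PCNA, the polymerase clamp, had 10300 and 10900 normalised reads against 17050 and 17370, a difference of -0.70 as deposited and 0.23 after B-cell scaling. Of 22 mitotic genes, 19 were lower and 1 higher as deposited, and 20 were higher and 1 lower after B-cell scaling. The 1 that was lower on both scales was PLK1, a mitotic kinase, at -1.03 and -0.10. All 20 genes of MYC and ribosome biogenesis were lower as deposited, by a median of -0.57, and 18 were higher after B-cell scaling. MYC had 5516 and 6125 normalised reads against 8042 and 7956, a difference of -0.46 as deposited and 0.47 after B-cell scaling.

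Transcripts of the mitochondrial respiratory chain differed by the genome that encodes them. All 13 mitochondrially encoded messages were higher with MS8815, by a median of 1.59 as deposited, while after quantile normalisation 11 were higher and MT-CO1 was lower by -0.69. MT-ND2, a subunit of complex I, had 122300 and 127300 normalised reads with MS8815, 19980 and 19270 with MS8815N, and 18890 and 19690 with DMSO. MT-CO3, a subunit of cytochrome oxidase, was the closest to 0 at 0.63 as deposited. Limma called 4 of the 13 higher with MS8815N than with DMSO as well, with MT-CO1 at 0.30 as deposited. Of 22 nuclear-encoded subunits, 20 were lower and 0 higher as deposited, with a median of -0.43, and 22 were higher after B-cell scaling. ATP5B, the catalytic subunit of the ATP synthase, was lower by -0.88 as deposited and was at 0.05 after B-cell scaling. RNA that carries no long poly(A) tail was also higher with MS8815 in 12 of 15 cases. RN7SL1, the RNA of the signal recognition particle, had 456000 and 461700 normalised reads with MS8815, 37840 and 35740 with MS8815N, and 26790 and 25360 with DMSO. The labels name either of 2 library kits without saying which served which library, and the part of that choice was not tested.

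The other genes with the largest differences were of several kinds. MT-RNR1, the small mitochondrial ribosomal RNA, had 511100 and 518600 normalised reads against 20560 and 22200, a difference of 4.59. SPG20, a protein of endosomes and mitochondria, was higher by 4.50. The U1 RNA entry was higher by 4.57 with a wide 95% interval of 1.18 to 7.96. It had 1836 and 1859 normalised reads with MS8815 against 299.2 and 19.22 with MS8815N, and U1 has many near-identical copies. The call was lost without either MS8815 library, where the difference was 4.58 and 4.56, and without MS8815N replicate 2, where it was 2.62. It was also lost with no variance trend and with 1 variance for each group. Among the lower genes PLD4, a phospholipase D family nuclease, had 70.21 and 118.8 normalised reads against 774.8 and 821.2, a difference of -3.11 as deposited and -2.19 after B-cell scaling. The transcript CTB-147N14.6 differed by -4.28, the splicing factor entry U2AF1, which has a near-identical copy, by -2.88, the transcript RP5-940J5.9 by -2.09 and the serotonin receptor HTR3A by -2.12. These 4 were also lower after B-cell scaling, at -3.37, -1.96, -1.15 and -1.18.

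Of the 26 genes called higher with MS8815N than with DMSO, 11 were lower with MS8815 than with MS8815N and 14 were higher. Both counts share the MS8815N libraries and are descriptions. For 5 of the 29 called genes the interval between the compounds lay within 1.5-fold, as it did for 29.4% of all genes. These were PYCR1, an enzyme of proline synthesis, SARS, the serine tRNA synthetase, the transporter genes SLC3A2 and SLC7A5, and TMSB4X, which encodes thymosin beta 4. Their differences were -0.36, -0.26, 0.00, -0.29 and -0.30 as deposited, and 0.58, 0.67, 0.94, 0.64 and 0.63 after B-cell scaling. PYCR1 had 1381 and 1252 normalised reads with MS8815, 1715 and 1652 with MS8815N, and 1048 and 1068 with DMSO, so that both compounds lay above the vehicle without overlap.

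Markers of other blood cells gave no common pattern. Of 10 T-cell and natural killer cell markers, 5 were tested, 0 were higher and 2 lower as deposited, and PRF1 (perforin) had 2.583 and 13.31 normalised reads against 68.18 and 61.56. Of 6 tested myeloid markers, only CD68, a lysosomal protein, was called as deposited, with 716.5 and 818.8 against 23.03 and 19.81. None of the 8 erythroid markers was in both tables. Of 16 fibroblast markers, 11 were tested and 9 were higher, by a list median of 3.11. Among the epithelial keratins, KRT8 (chromosome 12, 52897187 to 52949954) had 5183 and 5139 normalised reads with MS8815, 400 and 439.3 with MS8815N, and 315.6 and 303 with DMSO. This is a difference of 3.62 ± 0.09, or 12.3-fold, and the receptor tyrosine kinase AXL, from the adherent-cell list, differed by 3.69.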

How the data were processed

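The deposited values are log2-type variance-stabilised expression values from 3 tables, each holding the 2 DMSO libraries and the 2 libraries of 1 compound. STAR 2.4.2, Salmon and GRCh38 appear in the submitters' processing notes, without their roles, and the library kit is 1 of 2 named in the labels. Each table was inverted to normalised read counts by the usual form of this transform, with the table's lowest value as its constant, and the MS8815 table was moved to the MS8815N scale gene by gene through the shared DMSO libraries. The largest remaining deviation between the DMSO values was 5.163e-11 on the log2 scale over 17371 genes, and 21 genes used the median constant. Normalisation between libraries is the authors'.

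Differences were fitted with limma 3.58.1 (R 4.3.3, variance trend) on log2(normalised read count + 1) over 6 libraries, with Benjamini-Hochberg adjustment over 17702 genes and calls at 0.05. This understates fold changes of low genes. The procedure was tested on simulated data with the same spread in every group and few genes changed. That setting differs from these data, in which MS8815 replicates varied more and many genes were called. Depth was estimated from the steps between low values, of which 47.41% to 65.74% lay within 0.02 of a whole multiple. Motif searches used Python 3.11.15, and gene coordinates are from GENCODE 29.

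Members and lists were chosen with earlier results of these data known. Named genes were a fixed set of 20, the 6 called genes with the largest difference in each direction in the upper 50% by level, and from each list the 3 with the smallest p and the 1 closest to 0. Level is the mean over all 6 libraries, MS8815 included. HSPA6 and ATF3, with few reads in the other libraries, passed that filter through their MS8815 values. Genes called with MS8815N against DMSO whose interval between the compounds lay within 1.5-fold were added. Other genes named were chosen after their values were seen, and some genes taken by the rule are not reported here. Alternatives were other pseudocounts (0.1 and 10), the upper 50% of genes, quantile and B-cell scaling, other variance models, other sets of libraries, a replicate block and each library left out. The EPZ-6438 libraries entered the fit of all 8 libraries and the estimates of depth and B-cell level. Their difference from DMSO was computed for each list with tested genes, and only that of the adherent-cell list is reported.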

Additional observations from a re-analysis of the deposited data

Results flagged for a closer look

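The MS8815 table lists 1042 genes that the MS8815N table does not, and they entered no comparison. Of these, 1032 had a higher mean with MS8815 than with DMSO, at a median of 10.56 against 0.6855 normalised reads, and 8 reached 100 or more. In the EPZ-6438 libraries, which are outside the comparison, the adherent-cell list had a median difference of 0.4 from DMSO, against 0.37 for MS8815N and 3.98 for MS8815. These comparisons share the DMSO libraries.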

How the results depend on the processing

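The 8454 calls between the compounds became 5625 with the lower 50% of genes left out and 13104 after B-cell scaling, and ranged from 6234 to 9156 with 1 library left out. The percent of calls that were higher was 29.4, 37.9 and 98.5 in the upper 50% of genes, after quantile normalisation and after B-cell scaling, and 46.2 to 51.7 with 1 library left out. Genes with an interval within 1.5-fold numbered 1414 after B-cell scaling and 4028 to 5318 with 1 library left out. Calls of MS8815 against DMSO became 5910 in the upper 50% and 13619 after B-cell scaling, and were 6871 to 9699 with 1 library left out. Calls of MS8815N against DMSO were 54 in the upper 50%, 2 with no variance trend, 65 with all 8 libraries, 210 with 1 variance for each group, and 0 to 119 with 1 library left out. Where 1 library was left out, the lone library was assumed to vary like the other groups. The labels give no source for a pairing by replicate number. Deviations of replicate 1 correlated at 0.286 between DMSO and MS8815N, at -0.0106 between DMSO and MS8815, and at -0.0236 between the compounds. The replicate block gave 12 such calls and 8214 between the compounds, and changed the call of none of the 112 named genes. The cause of these changes was not tested, apart from the smaller number of genes or libraries by construction.

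B-cell scaling turned 16 list medians from below to above 0. They became 0.85 for PRC2, 0.24 for cholesterol synthesis, 0.90 for the ATF4 program, 0.65 for tRNA synthetases, 0.63 for endoplasmic reticulum chaperones, 0.65 for heat-shock genes, 0.68 for the VHL ligase, 0.18 for germinal-centre genes, 0.30 for B-cell receptor signalling, 0.51 for plasma-cell genes, 0.87 for MHC class II, 0.50 for replication, 0.43 for mitosis, 0.37 for MYC and ribosome biogenesis, 0.51 for nuclear-encoded oxidative phosphorylation and 0.47 for T-cell markers. In the upper 50% of genes the medians turned to -0.30 for polycomb-regulated, -0.16 for fatty acid, -0.24 for p53 and -0.11 for BCL2 family genes, and after quantile normalisation to -0.03 for p53, -0.01 for BCL2 family and 0.01 for ATF4 program genes. With 1 library left out, medians near 0 turned for PRC2 (0.02), fatty acid (-0.05 to 0.07), MHC class II (0.03 and 0.07) and BCL2 family genes (-0.08 and -0.05).

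Among named genes, B-cell scaling turned 31 differences from negative to positive. They became 0.42 for ACLY, 0.13 for ASNS, 0.75 for ATF4, 0.05 for ATP5B, 0.38 for BCL2, 0.27 for BCL2L11, 0.50 for CAND1, 0.61 for EED and 0.70 for EZH2. They became 0.12 for HSPA8, 0.11 for HSPD1, 0.64 for INSIG1, 0.33 for KARS, 0.47 for MYC, 0.38 for PAX5, 0.42 for PCK2, 0.23 for PCNA, 0.18 for PSAT1, 0.58 for PYCR1 and 0.33 for RBBP4. They became 0.46 for RBBP7, 0.64 for RUNX3, 0.67 for SARS, 0.64 for SLC7A5, 0.83 for SREBF1, 0.38 for SREBF2, 0.91 for STAT2, 0.63 for TMSB4X, 0.82 for VHL, 0.39 for WARS and 0.93 for XBP1. Quantile normalisation turned ATF4 to 0.09, HSP90AA1 to -0.72 and MT-CO1 to -0.69, and STAT2 ranged from -0.39 to 0.35 with 1 library left out. Of 1673 values of named genes under the other 15 alternatives, 1618 kept direction and call. The myeloid list gave no value with the lower 50% of genes left out. Depth was lowest with MS8815, which limits its low genes most.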
